A study of Mus musculus with 4 samples.

Results

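The genes described here are the mitochondrial ribosomal protein genes of the mouse, chosen by name as the genes whose symbol starts with Mrpl or Mrps followed by a digit. They numbered 76 of the 21090 genes in the table, with 47 Mrpl and 29 Mrps genes. RNA-seq was run on 4 mammary tumor cell line libraries, 1 per line, to ask how loss of S100a4 changes gene expression. All 4 lines go back to tumor cells of the genotype Pik3ca H1047R;Trp53 R270H;MMTV-Cre on the C57BL/6 background, from an animal whose tumor had spread to the lung. Controls were the parental line and a line with the vector control (n = 2). The S100a4 knockout group held 1 line given a guide RNA against exon 3 and 1 line given a guide RNA against exon 2 (n = 2). The guides were delivered with Cas9 by lentivirus under puromycin selection, so an edited line is a selected population and not a repeat of the same edit. The titles call the exon 2 knockout a 308 cell and the others a 307 cell, while the methods name 1 starting line for the knockouts. No library was repeated, so p-values measure only the spread between these lines.

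Mitochondria have their own ribosome, which translates the few proteins encoded by the mitochondrial genome, all of them subunits of the respiratory chain and ATP synthase. Its RNAs come from the mitochondrial genome, but every one of its proteins is encoded in the nucleus, made in the cytosol and imported. The large subunit forms peptide bonds and the small subunit decodes the messenger. Some of the proteins have counterparts in bacterial ribosomes and the others are found in mitochondria only. The letters l and s in the symbols were given early for large and small subunit, and structures later moved Mrps30 and Mrps18a to the large subunit and Mrps36 to the α-ketoglutarate dehydrogenase complex. Nuclear factors often tied to promoters of such genes are the ETS factor Gabpa with its Gabpb partners, Nrf1 and Yy1.

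To show what the start sites of these genes look like, short stretches around 3 words resembling the binding sites of those factors were read from RefSeq promoters (build GRCm38.p6, 250 bases before to 50 after each start). The words were CCGGAAG for ETS factors, GCGCANGCG for NRF1 and AAGATGGCG for YY1, each sought on both strands. Each stretch is given 5′ to 3′ on the strand of its gene, with the word, or its reverse complement, in capitals. Mrps18a, Mrps18b and Mrps18c are shown as the 3 mammalian relatives of 1 bacterial protein. Mrps26 and Mrpl12 are shown as genes higher in both knockouts, Mrps22 as a gene lower in both, Mrps33 as the steadiest, and Mrpl14 and Mrps24 as 2 of the most abundant. The Mrps18a stretches lie at chr17:46110968-46110994 and chr17:46111005-46111033 on the plus strand, the Mrps18b stretches at chr17:35916391-35916407 (at the end of its window) and chr17:35916646-35916674 on the minus strand and the Mrps18c stretch at chr5:100798593-100798619 on the plus strand. The Mrps26 stretches, with the ETS word and 1 of 2 NRF1 words, lie at chr2:130563733-130563759 and chr2:130563745-130563773, and that of Mrpl12 at chr11:120484547-120484575, all on the plus strand. Those of Mrps22, at chr9:98601674-98601700, Mrps33, at chr6:39810887-39810908, and Mrps24, at chr11:5707652-5707675, are on the minus strand, and that of Mrpl14, at chr17:45686343-45686371, is on the plus strand.
Mrps18a, ETS: cacccctgctCCGGAAGcggaagtgca
Mrps18a, YY1: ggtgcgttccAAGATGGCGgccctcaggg
Mrps18b, ETS: cgcagtcgctCTTCCGG
Mrps18b, NRF1: aacggcccgaCGCATGCGCactgggagca
Mrps18c, ETS: ggtcacgtgaCTTCCGGcccgggaagc
Mrps26, ETS: tccgcggccaCTTCCGGgccgggcgca
Mrps26, NRF1: tccgggccggGCGCAGGCGcaggcgctgg
Mrpl12, NRF1: attgtctccgCGCCTGCGCgtcgcaccgc
Mrps22, ETS: acctctcgagCCGGAAGttgctctatc
Mrps33, ETS: gggggcgggcCTTCCGGggacg
Mrpl14, NRF1: aacccctggcGCGCAGGCGcagcgtgcgg
Mrps24, YY1: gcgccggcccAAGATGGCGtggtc

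RefSeq windows were found for 67 of the 76 genes, giving 73 windows of 300 bases. Those for Mrpl4, Mrpl13, Mrpl15, Mrpl19, Mrpl38, Mrpl54, Mrps28, Mrps34 and Mrps35 were not matched. The ETS word was in 32.9% of the mitochondrial ribosomal protein windows, against 8.86% of all 32851 windows and 18.1% of the 10664 windows of tested genes. The NRF1 word was in 21.9%, against 6.25% of all windows and 14% of windows of tested genes. The YY1 word was in 11.0%, against 1.40% and 3.15%. At least 1 of the 3 words was in 54.8%, against 14.8% of all windows and 31.0% of windows of tested genes. The Sp1 word (GGGCGG) was in 53.4%, against 35.7% of all windows and 64.7% of windows of tested genes, so it was more frequent than in the one and less than in the other. The TATA box (TATAAA) was in 6.85%, against 13.6% and 6.55%, and the E-box (CACGTG) in 9.59%, against 7.15% and 10.1%. The ETS word shared bases with another of these words in 2 windows, the NRF1 and YY1 words in 0. A match describes the letters only and was not tested as a binding site.

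All 76 genes were detected in all 4 libraries. RPKM, reads per kilobase of gene relative to the library total, here scales with coding length, so levels of different genes can be set side by side. The median level was 42.8 RPKM in the parental line, 58.6 with the vector, 62.7 after exon 3 editing and 59.3 after exon 2 editing. The parental line was the lowest and the other 3 lay close together. The genes took 0.386% of the reads in genes in the parental line (95% Wilson interval 0.384 to 0.389), 0.520% with the vector (0.516 to 0.523), 0.634% after exon 3 editing (0.630 to 0.638) and 0.558% after exon 2 editing (0.554 to 0.562). These intervals cover counting error only, and by this share the vector control lay nearer to the exon 2 knockout than to the parental line. In bulk RNA, fewer cells with a high level and less of the RNA per cell cannot be told apart.

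The order of the genes by level was much the same in every library, with a Spearman rho between 0.901 and 0.969 for the 6 pairs of libraries (n = 76 genes, which share libraries and are not independent). The most abundant was Mrpl14, a protein of the large subunit face that meets the small subunit, at 162 RPKM in the parental line, 206 with the vector, 277 after exon 3 editing and 244 after exon 2 editing. Both knockouts lay above both controls. Mrpl13, a large subunit protein with a bacterial counterpart, had 137, 177, 227 and 235 RPKM in the same order of libraries, again without overlap. Mrps24, of the small subunit, had 122, 163, 246 and 176 RPKM, with the exon 2 knockout only just above the vector control. Mrps6, also of the small subunit, had 201, 183, 130 and 156 RPKM and ran the other way, with both knockouts below both controls. The 2 genes of lowest level were Mrpl23, at the rim of the tunnel through which the new peptide leaves, and Mrps36. Mrpl23 had 0.560, 1.03, 1.68 and 2.63 RPKM, resting on 8, 12, 18 and 27 reads. Mrps36 had 3.52, 3.44, 4.14 and 2.74 RPKM from 34, 27, 30 and 19 reads, and the groups overlapped. The GENCODE M21 annotation names 1 pseudogene of Mrpl23 and 3 of Mrps36, which can share reads with them, so both levels are uncertain.

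**Figure D1:**
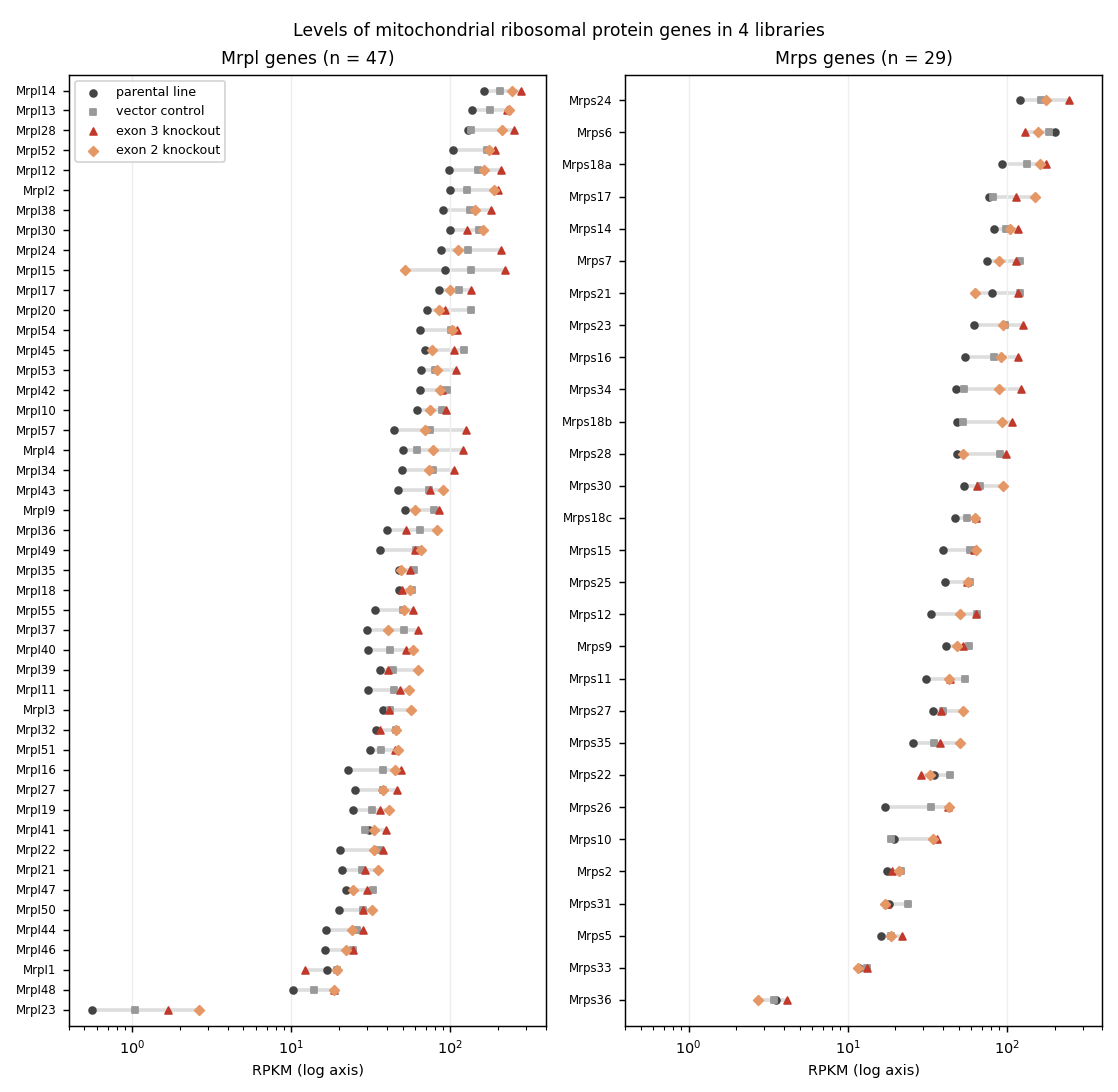
RPKM (log axis) of each mitochondrial ribosomal protein gene in the 4 libraries, Mrpl genes on the left (n = 47) and Mrps genes on the right (n = 29), ordered by mean level, with 1 point per library and a grey bar from the lowest to the highest. The parental line (dark circles) is the leftmost point for most genes, and Mrps6, at 201 RPKM in the parental line, is among the exceptions.

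The knockouts were compared with the controls in a single limma fit over all 10871 genes with a mean of at least 1 RPKM, which included all 76. No mitochondrial ribosomal protein gene passed an adjusted p of 0.05 (0 of 76), and among all tested genes 0.0184% did. With 2 libraries against 2, the smallest p of an exact permutation test of a single gene is 1 in 3. At an unadjusted p under 0.05, 8 of the 76 (Mrpl2, Mrpl4, Mrpl28, Mrps10, Mrps17, Mrps18b, Mrps26 and Mrps34) were higher in the knockouts, against 5.32% of all tested genes. In the other direction the count was 0 of 76, against 13.8% of tested genes. The median log2 change of the 76 genes, knockouts minus controls on the log2(RPKM + 1) scale, was 0.38, with 65 positive and 11 negative values between -0.43 and 1.03. The median of all tested genes was -0.08.

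Both knockouts lay above both controls for 34 of the 76 genes, or 44.7%, where 21.9% of all tested genes did. Both lay below for 3 genes, Mrps6, Mrps22 and Mrps31, where 31.2% of tested genes did. When every knockout had to be at least 1.5-fold above every control, 5 genes were left (Mrpl23, Mrpl28, Mrps10, Mrps18b and Mrps34, 6.58%), against 2.81% of tested genes. Of these, Mrpl28, Mrps10, Mrps18b and Mrps34 lie on chromosome 17, where 45.1% of tested genes lay above both controls without a fold threshold. Mrpl23 rests on 8 to 27 reads per library. At least 1.5-fold below every control were 0 of 76, against 9.98%.

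The vector control limited the count of higher genes, and the parental line limited the count of lower genes. Without the vector control, 68 genes were higher in both knockouts, where 37.8% of all tested genes were. In that fit 2 passed limma, Mrps26 with an adjusted p of 0.0320 and Mrps34 with 0.0380, where 451 of 10871 tested genes passed, a larger share. Without the parental line 34 were higher, where 31.7% of tested genes were, and 16 were lower, where 47.3% were. The median change was then 0.12, against -0.13 over all tested genes.

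Of all tested genes 21.9% lay above both controls in both knockouts and 31.2% below, and the counts by subunit are read beside these shares. The 49 genes of the large subunit had a median log2 change of 0.39, with 23 above both controls in both knockouts and 0 below. The 26 genes of the small subunit had a median of 0.28, with 11 above and 3 below. All 3 genes that ran the other way without overlap thus belonged to the small subunit. After a correction for GC content and length, Mrpl18 and Mrpl20 of the large subunit lay below both controls too. Without the parental line, Mrpl18, Mrpl20, Mrpl35, Mrpl42, Mrpl45 and Mrpl47 were lower in both knockouts than in the vector control. Large subunit genes with a bacterial counterpart (29 genes, median 0.39, 12 above) and those found in mitochondria only (20 genes, median 0.38, 11 above) had like medians. In the small subunit the medians were 0.24 for the 16 genes with a bacterial counterpart and 0.39 for the 10 without. Mrps18a and Mrps18b, though relatives of the same bacterial protein as Mrps18c, were counted here as found in mitochondria only. The stalk that recruits the translation factors, formed with Mrpl10, Mrpl11 and Mrpl12, had a median of 0.48 with 2 genes above both controls. Around the peptide exit tunnel (Mrpl22, Mrpl23, Mrpl24, Mrpl45 and Mrpl47) the median was 0.38 with 1 gene above. Differences between these classes were not tested.

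**Figure D2:**
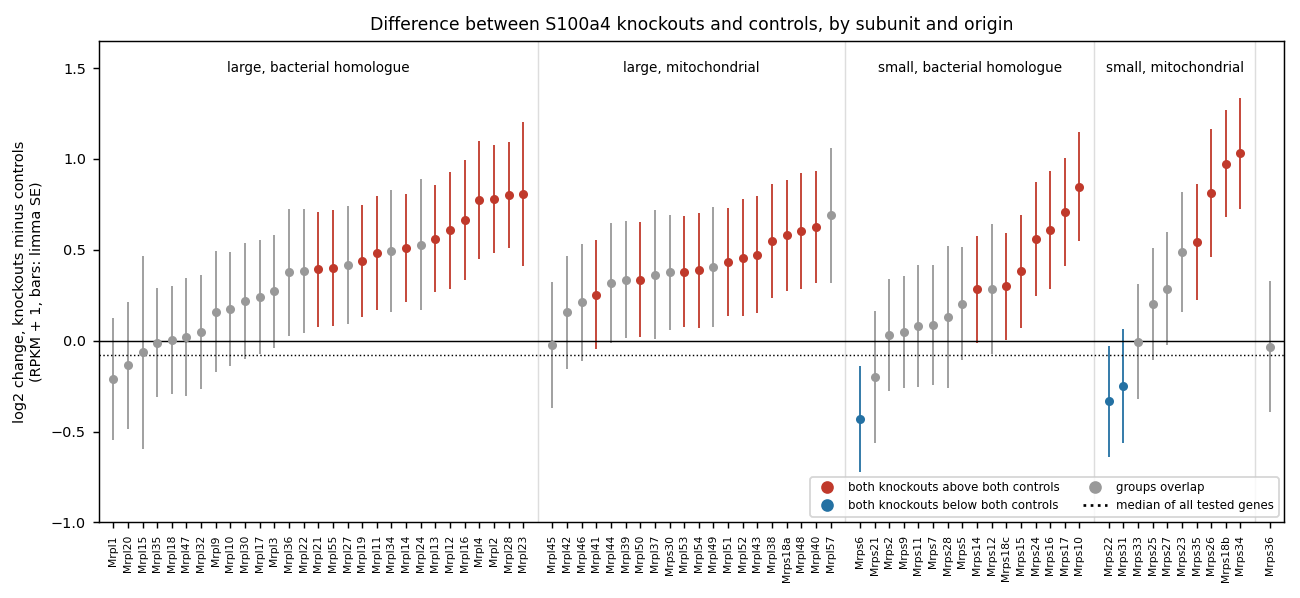
Log2 change (knockouts minus controls, RPKM + 1) of the 76 genes with the limma standard error, grouped by subunit and by whether the protein has a bacterial counterpart, with the dotted line at the median of all tested genes (-0.08). Red marks the 34 genes with both knockouts above both controls, blue the 3 below, and grey the genes whose groups overlap.

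In the fit above, the highest log2 changes were in the small subunit. Mrpl23, of the large subunit and with few reads, lay above Mrps34 with a pseudocount of 0.1 (1.35 against 1.04). It did so after quantile normalization too (1.13 against 0.93). Mrps34, a protein found in mitochondrial ribosomes only that is needed for a stable small subunit, had 47.8 RPKM in the parental line, 54.0 with the vector, 123 after exon 3 editing and 89.5 after exon 2 editing. The knockouts were higher than both controls (mean 50.9 ± 4.42 in the controls and 106 ± 23.4 in the knockouts, SD, n = 2 each), and the log2 change was 1.03 (SE 0.306, limma adjusted p = 0.139), or 0.65 after a correction for GC content and length. The gene lies at chr17:24895116-24897502 on the plus strand (GRCm38) and overlaps Nme3 on the same strand and Mapk8ip3 on the other.

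Mrps18b, a small subunit member of the Mrps18 family counted here as mitochondria-only (chr17:35910379-35916389), had 48.8, 53.3, 109 and 93.9 RPKM in the parental, vector, exon 3 and exon 2 lines. The controls lay close together and well below the knockouts, with a log2 change of 0.97 (SE 0.293, limma adjusted p = 0.142). Mrps18a, placed in the large subunit, had 94.2, 134, 176 and 162 RPKM in the same order, and Mrps18c, of the small subunit, had 47.4, 56.6, 64.5 and 63.4 RPKM. All 3 relatives were thus higher in both knockouts than in both controls, where 21.9% of all tested genes were. Mrps18b and Mrps18a lie on chromosome 17, where 45.1% of tested genes were, and Mrps18c on chromosome 5, where 30.8% were. The log2 changes were 0.97 for Mrps18b, 0.58 for Mrps18a and 0.30 for Mrps18c, with limma adjusted p of 0.142, 0.319 and 0.593. The windows of all 3 held the ETS word, and those of Mrps18b and Mrps18a also held the NRF1 and the YY1 word, respectively.

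Mrps10, a small subunit protein with a bacterial counterpart (chr17:47368887-47381417), had 19.7 and 18.8 RPKM in the parental line and the vector control, against 36.5 and 34.3 RPKM after exon 3 and exon 2 editing. Both groups were tight (19.3 ± 0.633 and 35.4 ± 1.55, SD, n = 2 each), with a log2 change of 0.85 (SE 0.299, limma adjusted p = 0.183). Mrpl28, of the large subunit (chr17:26123500-26126613), had 129 and 134 RPKM in the controls against 250 and 212 RPKM after exon 3 and exon 2 editing. Its log2 change was 0.80 (SE 0.290, limma adjusted p = 0.189), also without overlap, and 0.46 after that correction.

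Mrps26, found in the small subunit of mitochondria only (chr2:130563742-130568695), differed from Mrps34, Mrps18b, Mrps10 and Mrpl28 in that its controls lay far apart. The vector control lay above the parental line, as for 72 of the 76 genes. Mrps26 had 17.2 RPKM in the parental line, 33.4 with the vector, 42.9 after exon 3 editing and 43.1 after exon 2 editing. The knockouts were nearly equal, and the vector control lay closer to them than to the parental line, with a log2 change of 0.81 (SE 0.353, limma adjusted p = 0.246). It was 0.42 after the correction for GC content and length, 0.35 without the parental line and 1.27 without the vector control. Mrpl23 (chr7:142532686-142540747) had a log2 change of 0.81 (SE 0.396, limma adjusted p = 0.291) on the few reads given above, and 1.35 with a pseudocount of 0.1.

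Mrpl12, the stalk protein that contacts the translation factors and has also been tied to the mitochondrial RNA polymerase, had 97.9, 148, 209 and 162 RPKM in the parental, vector, exon 3 and exon 2 lines. The exon 2 knockout lay just above the vector control, and the log2 change was 0.61 (SE 0.321, limma adjusted p = 0.320). Mrps30, a large subunit protein in spite of its name, had 53.9, 68.1, 65.3 and 95.3 RPKM, and its groups overlapped because the exon 3 knockout lay below the vector control.

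At the other end, Mrps6 had the lowest log2 change, -0.43 (SE 0.292, limma adjusted p = 0.433), from the levels given above, and -0.65 after the correction for GC content and length. Its gene, at chr16:92058270-92112227, contains Slc5a3, a myo-inositol transporter gene at chr16:92058322-92087473 on the same strand. Slc5a3 had 55.0, 32.5, 5.63 and 9.82 RPKM in the parental, vector, exon 3 and exon 2 lines, with a log2 change of -2.35 (SE 0.373, limma adjusted p = 0.0731). How reads were divided between the 2 genes is not given in the sources used here, and the part of Slc5a3 in the level of Mrps6 was not tested.

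Mrps22, a mitochondria-only small subunit protein known from inherited mitochondrial disease (chr9:98588730-98601660), had 34.8 and 44.3 RPKM in the parental and vector lines, and 29.0 and 33 RPKM after exon 3 and exon 2 editing. The exon 2 knockout lay only just below the parental line, and the log2 change was -0.33 (SE 0.306, limma adjusted p = 0.564). It was -0.13 after the correction for GC content and length, -0.17 against the parental line alone and -0.50 against the vector control alone. Mrps31, also of the small subunit and without a bacterial counterpart (chr8:22411361-22429665), had 18.3, 24.1, 17.8 and 17.2 RPKM in the 4 libraries in the same order. The knockouts and the parental line differed little, with a log2 change of -0.25 (SE 0.314, limma adjusted p = 0.683), and Mrps31 no longer lay below both controls after scaling by the median ratio, quantile normalization or the correction for GC content and length (log2 changes of -0.16, -0.13 and -0.03). The change was -0.06 against the parental line alone and -0.44 against the vector control alone.

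The remaining genes among the 6 lowest overlapped between the groups. Mrpl1, of the mobile stalk through which tRNAs leave the large subunit (chr5:96209493-96266727), had 16.6, 19.4, 12.1 and 19.4 RPKM in the parental, vector, exon 3 and exon 2 lines. Only the exon 3 knockout was low, and the log2 change was -0.21 (SE 0.337, limma adjusted p = 0.753). Mrps21, of the small subunit (chr3:95862634-95871519), had 81.1, 122, 118 and 63.2 RPKM, with the exon 2 knockout the lowest, and a log2 change of -0.20 (SE 0.364, limma adjusted p = 0.790). Mrpl20, of the large subunit (chr4:155802878-155809975), had 70.8, 135, 92.8 and 85.3 RPKM, with the knockouts between the controls, and a log2 change of -0.14 (SE 0.347, limma adjusted p = 0.853). The direction of these 3 changes turned under at least 1 alternative.

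The steadiest genes, by the ratio of the highest to the lowest library among those with a mean of at least 5 RPKM, were Mrps33, Mrpl18 and Mrps2. Mrps33, found in the mitochondrial small subunit only, had 11.8, 13.3, 13.3 and 11.6 RPKM in the parental, vector, exon 3 and exon 2 lines, a ratio of 1.14. Mrpl18, the large subunit protein related to the bacterial one that binds the smallest ribosomal RNA, had 47.5, 57.6, 49.6 and 55.5 RPKM, a ratio of 1.21. Mrps2, of the small subunit, had 17.8, 21.8, 19.1 and 21.2 RPKM, a ratio of 1.22. In all 3 the groups overlapped, with log2 changes of -0.01, 0.00 and 0.03.

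The 2 controls were not alike for these genes. The vector control was higher than the parental line for 72 of the 76, with a median log2 difference of 0.48, against 0.16 over all tested genes. It was at least 1.5-fold higher for 26 genes (34.2%), where 18.6% of tested genes were, and at least 1.5-fold lower for 0, where 13% of tested genes were. As a raw median the difference between the controls was thus larger than the change between the groups (0.38, against -0.08 over all tested genes). Relative to the medians of all tested genes, the change between the groups was the larger. The difference compares single libraries, the change means of 2. After median ratio scaling the order of the raw medians turned, with 0.35 between the controls and 0.47 between the groups. It held after quantile normalization (0.36 and 0.32) and the correction for GC content and length (0.34 and 0.14). The exon 3 knockout differed from the parental line by a median of 0.65 and from the vector control by 0.13. The exon 2 knockout differed from them by 0.58 and 0.05. These pairs share libraries. All 4 medians lay above those of all tested genes, which were -0.05, -0.14, -0.02 and -0.13.

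**Figure D3:**
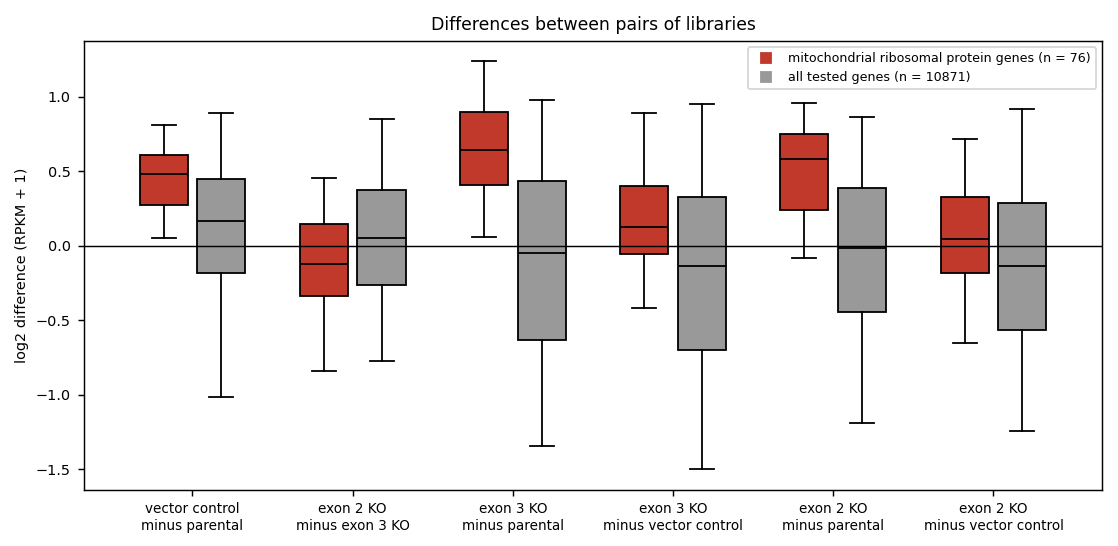
Log2 differences (RPKM + 1) between pairs of libraries for the 76 mitochondrial ribosomal protein genes (red) and all 10871 tested genes (grey). Boxes show the quartiles and median and whiskers the 5th to 95th percentiles, and the red median is 0.48 for vector control minus parental and 0.05 for exon 2 knockout minus vector control.

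The highest differences between the controls belonged to Mrps12, Mrpl20 and Mrps26. Mrps12, a protein of the decoding centre, had 33.5 RPKM in the parental line and 64.7 with the vector, a log2 difference of 0.93, with 64.0 in the exon 3 and 50.8 in the exon 2 knockout. The vector control lay above both knockouts. Mrpl20 and Mrps26 each differed by 0.92. At the low end were Mrps6 (-0.13), Mrpl41, of the large subunit (-0.08), and Mrps10 (-0.06). Mrpl41 had 30.9 RPKM in the parental line, 29.2 with the vector, 39.2 after exon 3 editing and 33.2 after exon 2 editing.

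The knockouts differed from each other less at the median, by -0.12 for exon 2 minus exon 3, with 28 genes higher and 48 lower in exon 2 (0.05 over all tested genes). The exon 2 knockout was at least 1.5-fold higher for 4 genes (Mrpl1, Mrpl23, Mrpl36 and Mrpl39, 5.26%), where 17.6% of tested genes were. It was at least 1.5-fold lower for 8 genes (Mrpl4, Mrpl15, Mrpl24, Mrpl37, Mrpl57, Mrps21, Mrps28 and Mrps36, 10.5%), where 11.8% of tested genes were. For 4 genes (Mrpl1, Mrpl15, Mrps33 and Mrps36, 5.26%) the knockouts lay outside both controls on opposite sides, where 7.88% of tested genes did.

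Mrpl15, a large subunit protein with a bacterial counterpart (chr1:4773206-4785739, minus strand), stood apart in this comparison. It had 92.4 RPKM in the parental line, 135 with the vector, 219 after exon 3 editing and 51.7 after exon 2 editing, from 3358, 3981, 5991 and 1350 reads. The exon 3 knockout was the highest and the exon 2 knockout the lowest of the 4, with a log2 difference of -2.07 between them. The 4 nearest genes measured on the side of its start were also lower in the exon 2 than in the exon 3 knockout. Of all 10871 tested genes, 4957 were lower too, and the other side of Mrpl15 was not read. Lypla1, a thioesterase, had 34.1, 45.3, 18.3 and 6.93 RPKM, and Atp6v1h, a proton pump subunit, had 41.5, 90.9, 47.1 and 21.8 RPKM. The ratio of exon 2 to exon 3 was 0.378 for Lypla1, 0.750 for Tcea1, 0.641 for Rgs20 and 0.463 for Atp6v1h. These neighbours were low against the parental line in the exon 2 knockout. In the exon 3 knockout Lypla1, Tcea1 (13.9 against 25.5 RPKM) and Rgs20 (1.42 against 3.97 RPKM) were low against it too, and Atp6v1h was not. Unlike Mrpl15, none of these neighbours was at its highest in the exon 3 knockout. Of 604 tested genes on chromosome 1, 11.8% lay above both controls in both knockouts, with a median log2 change of -0.39. A change of the region around Mrpl15 was not tested.

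Mrpl24, near the exit tunnel, had 87.1, 129, 209 and 112 RPKM and the next lowest difference, -0.89, the same as that of Mrps21. At the other end were Mrpl1 (0.64), Mrpl36 and Mrpl39. Mrpl36, a very small large subunit protein, had 39.9, 64.0, 52.8 and 82.1 RPKM, a difference of 0.63, and Mrpl39, found in mitochondria only, had 36.3, 43.3, 40.6 and 62.4 RPKM, a difference of 0.61. In both the exon 2 knockout was the highest library and the exon 3 knockout lay between the controls. Across the 76 genes the difference between the controls and that between the knockouts had a Pearson r of -0.26 (a description over genes, which share libraries).

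**Figure D4:**
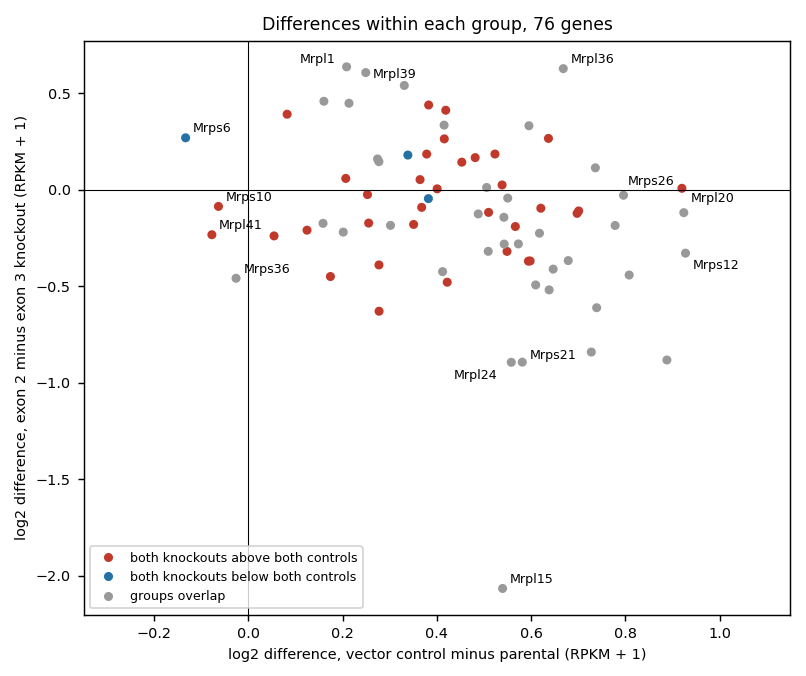
Each of the 76 genes by its log2 difference between the controls (x axis, vector control minus parental) and between the knockouts (y axis, exon 2 minus exon 3), both on RPKM + 1. Most points lie right of 0 on the x axis (72 of 76), and Mrpl15 lies far below the rest at -2.07.

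The measured change went with base composition. Across the 76 genes the log2 change, knockouts minus controls, had a Pearson r of 0.44 with coding GC content, and across 10776 tested genes with a coding sequence r was 0.46 (both across genes, which share libraries). With log2 coding length r was -0.04 among the 76 and -0.28 among all. The median GC content was 53.1% in the 76 genes and 53.0% in all, while the median coding length was 585 bases against 1386. After each library was corrected for GC content and length the median log2 change was 0.14, against -0.08 for all tested genes, and 24 genes were above both controls in both knockouts, 21 of them among the 34. The corrected background was 17.2% of tested genes. Below both controls were then 6 genes (Mrpl18, Mrpl20, Mrps2, Mrps6, Mrps22 and Mrps33), where 28.2% of tested genes were. Whether the uncorrected values follow composition for a technical reason was not tested.

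The change also went with the chromosome, a comparison made after the values were seen. The 76 genes lie on 17 chromosomes, and of the 8 on chromosome 17 both knockouts lay above both controls for 7 (Mrpl2, Mrpl14, Mrpl28, Mrps10, Mrps18a, Mrps18b and Mrps34), all but Mrpl18. Of all 514 tested genes of chromosome 17, 45.1% did, with a median log2 change of 0.27, and the median of the 8 was 0.79. Mrpl2, Mrpl28, Mrps10, Mrps18b and Mrps34, which had an unadjusted limma p under 0.05, all lie on this chromosome. On chromosome 3, 0 of 5 lay above both controls and 4.22% of 521 tested genes did, with a median of -0.50, and the 5 had a median of 0.13. On chromosome 13 the count was 0 of 5, against 8.42% of 368 tested genes. On each of the 17 chromosomes the median of the mitochondrial ribosomal protein genes was above that of all tested genes there. Taken against the median of its own chromosome, 68 of the 76 were positive, with a median of 0.42.

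Genes with the ETS word in their window had a median log2 change of 0.41 (24 genes, 11 above both controls), and those without it 0.28 (43 genes, 16 above). Of all tested genes 21.9% lay above both controls in both knockouts. For the NRF1 word the medians were 0.28 (16 genes, 4 above) and 0.38 (51 genes, 23 above). For the YY1 word they were 0.33 (8 genes, 2 above) and 0.34 (59 genes, 25 above). These differences were small beside the range of the genes and were not tested.

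Other parts of mitochondrial translation were read from lists, whose counts are read beside the same shares of all tested genes (21.9% above both controls in both knockouts, 31.2% below). Ribosomal proteins that carry other names were found for 6 genes, with a median log2 change of 0.40 and 1 gene above both controls in both knockouts. Leaving out the parental line, vector control, exon 3 or exon 2 knockout gave medians of 0.16, 0.71, 0.08 and 0.67, and quantile normalization and the GC and length correction gave 0.25 and 0.23. Aurkaip1, of the small subunit, was that gene, with 140 RPKM in the parental line, 183 with the vector, 258 after exon 3 editing and 240 after exon 2 editing. Dap3, the GTP-binding small subunit protein, had 126, 152, 220 and 134 RPKM, with the exon 2 knockout between the controls. Gadd45gip1, at the exit of the large subunit tunnel, had 81.1, 141, 220 and 95.1 RPKM, highest in the exon 3 knockout and with the exon 2 knockout between the controls. Chchd1, of the small subunit, had 91.2, 124, 153 and 123 RPKM, with the exon 2 knockout just below the vector control. Ict1, a peptidyl-tRNA hydrolase built into the large subunit, had 35.5, 60.4, 92.0 and 57.5 RPKM and the highest change of the list, 0.64. Ptcd3, an RNA-binding small subunit protein, had 18.7, 24.4, 10.2 and 19.8 RPKM and the lowest, -0.55. Both overlapped between the groups.

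The 22 genes for ribosome assembly and ribosomal RNA modification had a median of 0.37, with 10 above both controls and 0 below. The median was 0.08 without the parental line, 0.21 without the exon 3 knockout and 0.20 after the GC and length correction. Rbfa, which matures the small subunit RNA, had 26.1 and 54.1 RPKM in the parental and vector lines, and 61.5 and 66.7 RPKM after exon 3 and exon 2 editing, a log2 change of 0.75 (SE 0.363, limma adjusted p = 0.285). Mterfd1, a factor for mitochondrial RNA and ribosome formation, had 11.2, 13.1, 5.35 and 11.6 RPKM, low in the exon 3 knockout only, with a change of -0.55. The 17 mitochondrial tRNA synthetases had a median of 0.16, with 7 above and 1 below. It was 0.08 without the parental line, 0.32 without the vector control, 0.46 without the exon 3 knockout, and 0.24, 0.39 and 0.26 after median ratio scaling, quantile normalization and the GC and length correction. Aars2, for alanine, had 14.9 and 10.6 RPKM in the controls against 23.3 and 19.2 RPKM after exon 3 and exon 2 editing, a change of 0.70. Cars2, for cysteine, had 4.51, 13.2, 8.47 and 3.72 RPKM, a change of -0.40, and its groups overlapped.

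The 12 translation factors had a median of -0.03, with 2 above both controls and 2 below. Oxa1l, which inserts newly made proteins into the inner membrane, had 33.1 and 43.6 RPKM in the parental and vector lines, and 74.3 and 57.4 RPKM after exon 3 and exon 2 editing, a change of 0.77 (SE 0.312, limma adjusted p = 0.223). Mtif2, the initiation factor, ran the other way, with 16 and 24.5 RPKM in the controls and 9.54 and 9.65 in the knockouts, a change of -0.98 (SE 0.33, limma adjusted p = 0.173). Neither pair of groups overlapped. The sign of the median of this list turned under 3 other scalings.

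Of the 10 genes for mitochondrial transcription and RNA upkeep, 8 were tested, with a median of -0.30, 1 above both controls and 4 below. It was -0.48 without the parental line, -0.13 without the vector control, -0.45 without the exon 2 knockout, -0.17 after quantile normalization, -0.19 with a filter at 5 RPKM and -0.07 after the GC and length correction. Polrmt, the mitochondrial RNA polymerase, had 9.11, 11.3, 16.8 and 13.4 RPKM and the highest change, 0.52, without overlap. Mterfd3 had 4.21, 5.31, 2.29 and 3.72 RPKM and the lowest, -0.54. Of the 11 nuclear regulators 10 were tested, with a median of 0.04, 2 above and 4 below, and the median moved between -0.05 and 0.16 over the alternatives. Gabpb2, a partner of the ETS factor Gabpa, had 12.9 and 21.3 RPKM in the controls against 4.38 and 4.61 RPKM after exon 3 and exon 2 editing. Its log2 change was -1.68 (SE 0.350, limma adjusted p = 0.0969). Gabpb1, another partner, had 18.6, 19.5, 19.7 and 18.9 RPKM in the parental, vector, exon 3 and exon 2 lines. Its change was 0.02, and its groups overlapped. Myc, a growth regulator, had 256, 153, 201 and 402 RPKM, a change of 0.52 with overlapping groups. Of the factors named for the words sought in the windows, Gabpa had 18.2, 21.3, 6.74 and 15.8 RPKM, Yy1 had 50.2, 50.6, 24.4 and 31.1 RPKM, Sp1 had 28.2, 26.8, 15.3 and 20.1 RPKM, and Nrf1 had 17.3, 21.5, 19.2 and 21.2 RPKM. Gabpa, Yy1 and Sp1 were thus lower in both knockouts than in both controls, and Nrf1 lay within the range of the controls. No gene of these lists passed the adjusted threshold of 0.05 in limma (0.0184% of all tested genes did).

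**Figure D5:**
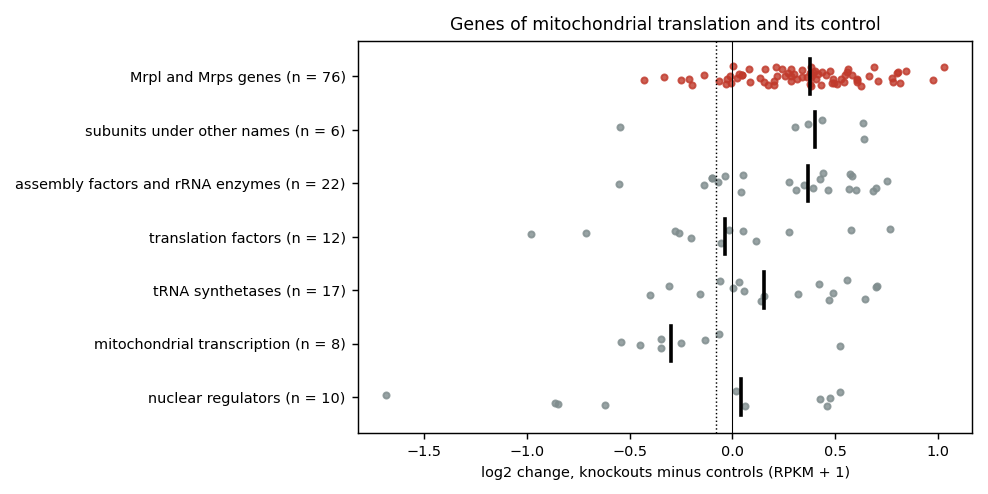
Log2 change (knockouts minus controls, RPKM + 1) of each tested gene in the mitochondrial ribosomal protein genes (red, n = 76) and 6 related lists (grey), with a black bar at each median and the dotted line at the median of all tested genes (-0.08). The bar lies at 0.38 for the Mrpl and Mrps genes, 0.37 for assembly factors and -0.30 for mitochondrial transcription, and points are spread vertically only to separate them.

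S100a4 had 3576 RPKM in the parental line, 4741 with the vector, 1136 after exon 3 editing and 1105 after exon 2 editing. Both edited lines thus carried less of its RNA (log2 change -1.88, SE 0.311, limma adjusted p = 0.0731). For the RNA that remained, the paper reports truncating mutations in the great majority of S100a4 transcripts of the knockout lines. It also reports loss of the protein by Western blot. Reads in genes, recovered from the RPKM values, ranged from 14733780 to 20581312. Of 7 epithelial markers only Krt8 and Krt18 had a mean of at least 1 RPKM, summing to 129, 33.6, 106 and 73.8 RPKM in the parental, vector, exon 3 and exon 2 lines. The 7 mesenchymal markers, all tested and S100a4 among them, summed to 9346, 7885, 4212 and 4011 RPKM, and the other 6 to 5771, 3145, 3077 and 2907 RPKM. Epcam, Krt5, Krt14, Krt19 and Cdh1 lay below the filter, so most markers of mammary epithelium were at low levels, while Vim, an intermediate filament of mesenchymal cells, had 2418, 2060, 1362 and 1721 RPKM. Of 5 blood and endothelial markers only Cd68 passed the filter, at 4.92, 3.36, 11.5 and 13.2 RPKM. The part of these differences between the lines in the levels of the mitochondrial ribosomal protein genes was not tested.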

How the data were processed

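RNA-seq of 4 mouse mammary tumor lines was analysed from the table the authors deposited, which holds RPKM values per gene, 1 column per library. Per the labels a stranded total RNA kit was used, and the submitters' processing notes name CASAVA 1.8, GSNAP and GRCm38. The gene model and counting rule are not given in the sources used here. Groups were taken from the sample titles.

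Reads were recovered from the RPKM steps: 99.99% of genes came out whole in all libraries (tolerance 0.001 reads), and 59.9% of the implied lengths equalled a coding length in GENCODE M21 (99.5% of symbols matched), which sets the scale. Reads in genes were 20581312 (parental), 17139285 (vector control), 15724403 (exon 3 knockout) and 14733780 (exon 2 knockout). Values were analysed as log2(RPKM + 1), which understates changes of low genes, with limma 3.58.1 (R 4.3.3, intensity trend, 2 knockouts against 2 controls, no covariates) on all genes with a mean of at least 1 RPKM, with Benjamini-Hochberg adjustment, two-sided, threshold 0.05. SE is the moderated standard error. The script was tested on simulated data. Other steps used Python 3.11.15, pandas 2.3.3 and scipy 1.17.1.

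The genes, lists and tests were chosen with earlier results of these data known. Genes were named by rule: the 5 with the highest mean level, the 6 highest and 6 lowest log2 changes, the 3 highest and 3 lowest differences within each group, the 3 steadiest, 6 chosen for their roles, subunits under other names, and the highest and lowest change of each related list. Genes at an unadjusted p under 0.05, the neighbours of Mrpl15 and the 2 genes of lowest level were named after their values were seen. So were Slc5a3, Gabpa, Gabpb1, Yy1, Sp1 and Nrf1. Alternatives were a pseudocount of 0.1, median ratio scaling, quantile normalization, no filter, a filter at 5 RPKM, limma with a robust prior or with no trend, a correction for coding GC content and length (loess, span 0.3), leaving out each library and, added after seeing the data, the change less the median of the chromosome.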

Additional observations from a re-analysis of the deposited data

Results flagged for a closer look

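For 4 of the 76 genes the exon 3 and the exon 2 knockout lay outside both controls on opposite sides. The log2 ratio of exon 2 over exon 3 (RPKM + 1) was -2.07 for Mrpl15 and 0.64 for Mrpl1. In Mrpl1 the exon 2 knockout (19.41 RPKM) lay barely above the vector control (19.39 RPKM). The ratio was -0.46 for Mrps36, on 19 to 34 reads per library, and -0.17 for Mrps33, whose levels spanned a ratio of only 1.14. These differences were not tested, since each knockout is 1 library, and 7.88% of all tested genes showed the same pattern.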

How the results depend on the processing

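No mitochondrial ribosomal protein gene passed limma under any alternative with all 4 libraries. The lowest adjusted p among the 76 was 0.0723, with a robust prior, under which 285 genes of the whole table passed. Leaving out each library in turn gave 0 to 2 genes passing, 34 to 68 higher in both knockouts (68 without the vector control), 3 to 16 lower (16 without the parental line, 7 without the exon 3 knockout) and a median change of 0.12 to 0.61. Among all tested genes, 3 to 788 then passed, 31.3% to 37.8% were higher and 40.8% to 47.3% lower. Leaving out a library leaves 1 in its group, whose spread limma takes from the other. The count of higher genes was 49 after median ratio scaling (median change 0.47), 40 after quantile normalization (0.32) and 24 after the correction for GC content and length (0.14), where 27.3%, 27.7% and 17.2% of all tested genes were higher. The count of lower genes was then 2, 2 and 6, where 27.7%, 24.0% and 28.2% of tested genes were lower. The median vector control minus parental difference was 0.35, 0.36 and 0.34 in these settings. The median change less that of the chromosome was 0.42. Some directions reversed. Mrpl1 was at 0.25 after the GC and length correction, and between -0.53 and 0.11 (without the exon 3 knockout) when a library was left out. Mrps21 ranged from -0.65 to 0.25 (0.092 without the vector control, 0.25 without the exon 2 knockout) and Mrpl20 from -0.60 to 0.33 (without the vector control). The median of the nuclear regulators ranged from -0.051 (without the parental line) to 0.061 with a library left out, and was 0.13, 0.16 and 0.090 after median ratio scaling, quantile normalization and the GC and length correction. That of the 12 translation factors was 0.055 after median ratio scaling, 0.14 after quantile normalization and 0.048 after the GC and length correction, and ranged from -0.23 to 0.19 with a library left out (0.19 without the vector control, 0.0064 without the exon 3 knockout). The causes were not tested. Counting limits Mrpl23 and Mrps36, with 8 to 34 reads per library. No paired analysis was possible because the replicate numbers only follow the order of deposition.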
